A study of Homo sapiens with 6 samples.

Results

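Interferon-stimulated genes are the genes that cells switch on when interferon, a secreted antiviral cytokine, binds its receptor. A set of 41 well-known members was followed in MDA-MB-231 cells, and the members were taken from the files by gene symbol. All 41 had a row among the 17631 genes listed for each library, and 38 of them were expressed well enough to be tested, among 12582 genes tested in all. MDA-MB-231, a long-established line from a human breast tumour of the triple-negative type, was kept in DMEM with fetal bovine serum. RNA was sequenced from 3 libraries of cells given vehicle and 3 libraries of cells given 30 µM PDBAG1, a peptide derived from the enzyme GPD1 and joined to a cell-penetrating sequence, both for 24 h. Neither the labels nor the methods say whether the 3 libraries of a group came from separate cultures, so p-values measure the spread between these libraries, which may be technical. The comparison asked whether the inflammatory response of the treated cells included an interferon arm.

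Values are TPM (a level corrected for transcript length, in which the values of every library add up to the same total). TPM keeps no record of read depth, so depth and counting error are unknown here. The libraries held 12392 to 12611 genes at 1 TPM or more, and the log2 differences between 2 libraries had a standard deviation of 0.142 to 0.175 where both had the same treatment and of 0.278 to 0.296 where they did not. The labels name breast cancer tissue as well as the cell line, and of the markers checked, VIM was at 4174 to 5942 TPM and CD44 at 313 to 499 TPM, while PGR, encoding the progesterone receptor, was at 0.06 TPM or less and CDH1, encoding E-cadherin, at 0.84 TPM or less. ERBB2, encoding HER2, was at 23.6 to 25.4 TPM, EPCAM, an epithelial adhesion molecule, at 3.92 to 5.78 TPM and ESR1, encoding an oestrogen receptor, at 1.96 to 3.38 TPM. Of the markers of other breast tissue cells, PTPRC (leukocytes) was at 0.86 to 1.41 TPM and ADIPOQ (adipocytes) at 0.32 to 0.69 TPM in all 6 libraries. CD68 (macrophages, also expressed by many cancer lines) was at 251 to 264 TPM in the vehicle group and 306 to 329 TPM in the PDBAG1 group, COL1A1 (fibroblasts) at 3.89 to 4.92 TPM over all libraries, and PECAM1 (endothelium) at 3.78 to 4.08 TPM in the vehicle group and 7.87 to 9.15 TPM in the PDBAG1 group. CD3E was not analysed here. The summed TPM of the 5 markers of other cells that were listed was 260 to 273 with vehicle and 321 to 343 with PDBAG1, or 9.12 to 9.63 and 13.5 to 15.6 without CD68, and their part in the changes of the members was not tested.

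In the type I interferon pathway, the receptor IFNAR1/IFNAR2 activates the kinases JAK1 and TYK2, which phosphorylate STAT proteins. STAT2 joins IRF9 in the complex ISGF3, which binds a promoter element called the ISRE and turns on genes that detect viral RNA, block translation of viral messages, trap virus particles and feed back on the pathway itself. Interferon-gamma acts through a different element, the GAS. Cells that respond to interferon raise many of these genes together.

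The members did not move together with PDBAG1. Of the 38 tested, 10 rose and 4 fell at an adjusted p under 0.05 in limma, a linear model fitted across all genes with Benjamini-Hochberg adjustment, and 24 did not pass. These 14 are 36.8% of the members tested, beside 37.6% of all 12582 genes (21.7% higher and 15.9% lower), so the share that passed was near the background. Their median log2 fold change (written below as log2 change) was 0.07 on the log2(TPM + 1) scale, beside 0.03 over all genes tested, and the quartiles were -0.07 and 0.25 for the members and -0.11 and 0.18 for all genes. On this scale the change of weakly expressed genes comes out smaller than it is. ISG20 alone rose past 1.5-fold (0.585 on the log2 scale), beside 3.34% of all genes that passed both limits. The 3 PDBAG1 libraries lay wholly above the 3 vehicle libraries in 11 members and wholly below in 5, 16 of 38, beside 47.4% of all genes. Under quantile normalization 7 members rose and 7 fell, in place of 10 and 4, and the median was 0.001. The number of members that fell was 2 without vehicle replicate 1, vehicle replicate 2 or PDBAG1 replicate 2. As these are bulk samples, a change in the share of responding cells and a change of RNA per cell cannot be told apart.

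**Figure D1:**
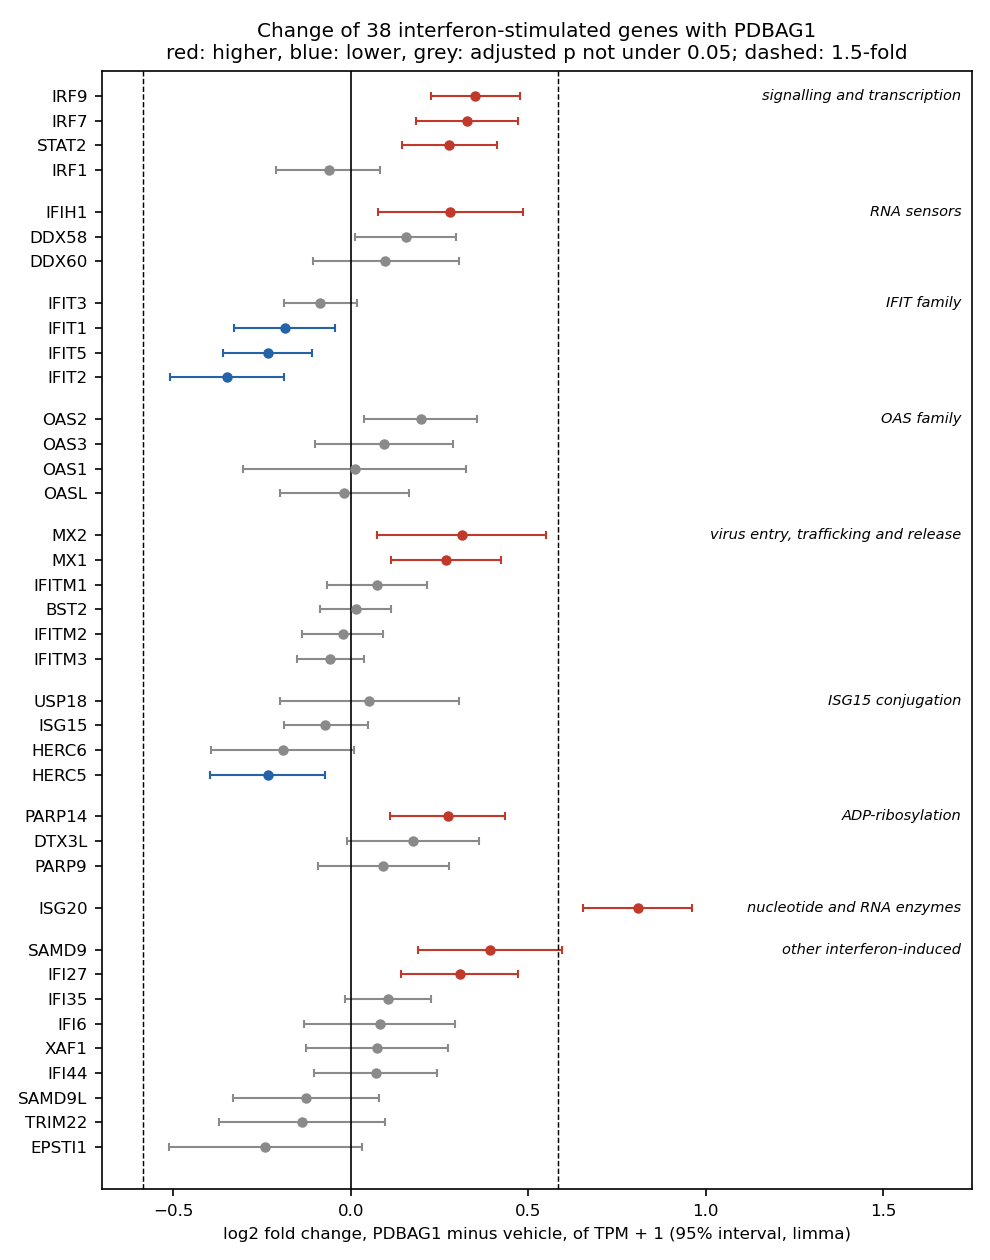
Log2 fold change of the 38 tested members, PDBAG1 minus vehicle on the log2(TPM + 1) scale (horizontal axis), with the 95% interval from limma, grouped by role and coloured by call. Only ISG20 has its point beyond the dashed line of a 1.5-fold rise, and the 4 IFIT genes all lie left of 0.

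On the log2(TPM + 1) scale, which narrows the changes and intervals of low genes, most intervals lay within 1.5-fold. In 36 of the 38 members the 95% interval from limma, not adjusted for the number of genes, ended below a 1.5-fold rise, and the exceptions were ISG20 and SAMD9. In no member did it reach a 1.5-fold fall. These bounds depend on the pseudocount: with 0.1 in place of 1, the log2 change of MX2 was 0.46 in place of 0.31 and that of EPSTI1 -0.36 in place of -0.24. For ISG15, a ubiquitin-like protein that is among the most strongly induced interferon targets, the interval of the log2 change ran from -0.19 to 0.05. It ran from -0.33 to -0.04 for IFIT1, from 0.11 to 0.42 for MX1 and from -0.30 to 0.33 for OAS1, which had the widest spread between libraries of these.

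The promoters are shown because ISRE cores occurred in members that rose, that fell and that did not pass alike. In the RefSeq promoter table (GRCh38.p14) 33 of the 41 members had an entry. IRF7, IFIT2, OAS2, OASL, MX2, IFITM2, USP18 and TRIM22 had none. The 250 bases before each annotated start were searched on both strands for the ISRE core, written as GAAA, any 2 bases and GAAA again. It was found in 22 of the 33 members (66.7%), against 3.71% of all 27305 genes of the table and none of 20 TNF/NF-kB target genes. By call, 6 of the 8 members that rose, 3 of the 3 that fell and 11 of the 19 that were tested and did not pass held the core. Stretches around it follow for 3 members that fell (IFIT1, IFIT5, HERC5), 3 that rose (ISG20, SAMD9, PARP14) and 2 that did not pass (ISG15, BST2), each 5′ to 3′ on the strand of the gene, with the bases of the core in capitals (on the opposite strand it reads as TTTC, 2 bases, TTTC).
IFIT1, chr10:89392477-89392559, plus strand: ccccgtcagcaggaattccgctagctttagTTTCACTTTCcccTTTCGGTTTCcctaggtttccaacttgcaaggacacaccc
IFIT5, chr10:89414493-89414567, plus strand: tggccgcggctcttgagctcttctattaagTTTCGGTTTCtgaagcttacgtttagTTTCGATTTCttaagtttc
HERC5, chr4:88456964-88457084, plus strand: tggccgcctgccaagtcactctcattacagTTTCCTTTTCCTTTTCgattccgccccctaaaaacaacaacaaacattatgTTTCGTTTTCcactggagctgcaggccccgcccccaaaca
ISG20, chr15:88638917-88638986, plus strand: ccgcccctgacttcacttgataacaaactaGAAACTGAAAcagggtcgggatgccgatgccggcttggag
SAMD9, chr7:93118076-93118145, minus strand: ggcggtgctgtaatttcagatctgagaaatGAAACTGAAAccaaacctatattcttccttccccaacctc
PARP14, chr3:122680780-122680838, plus strand: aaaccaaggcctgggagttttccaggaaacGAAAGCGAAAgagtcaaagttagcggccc
ISG15, chr1:1013354-1013429, plus strand: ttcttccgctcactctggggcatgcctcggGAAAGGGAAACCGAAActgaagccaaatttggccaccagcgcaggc
BST2, chr19:17405715-17405790, minus strand: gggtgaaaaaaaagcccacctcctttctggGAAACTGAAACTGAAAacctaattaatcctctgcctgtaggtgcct

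ISG15 and BST2 each held 2 cores that share bases, HERC5 held 3, IFIT1 and IFIT5 held 2 each, and ISG20, SAMD9 and PARP14 held 1. The core of ISG20 lay 69 to 60 bases before the start and that of SAMD9 136 to 127 bases before it. The GAS, searched as TTC, any 3 bases and GAA, was present in 11 of the 33 members (33.3%), 8.09% of all genes and 7.64% of tested genes. The kappaB motif, the element bound by NF-kB, was present in 8 of the 33 (24.2%), 11.8% of all genes and 15.6% of tested genes. By call, kappaB was in 2 of the 8 members that rose, 0 of the 3 that fell and 6 of the 19 that were tested and did not pass. The kappaB motif was in 11 of 20 TNF/NF-kB targets (55.0%). Counted in the first promoter window of each member only, a core shared bases with a GAS or kappaB match in 3 members. The motif counts of the members used all 43 windows. A match describes letters in a window and is not a measured binding site.

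Among the members that carry the signal, IRF9, IRF7 and STAT2 rose. IRF9 (chromosome 14, 24161234 to 24168043, GRCh38, GENCODE v44), the DNA-binding part of ISGF3, was at 31.9, 29.9 and 29.5 TPM with vehicle and at 39.10, 37.28 and 40.97 TPM with PDBAG1, that is, higher by 0.35 on the log2 scale (standard error, SE, 0.06, limma adjusted p = 0.000362). All 3 treated libraries lay above all 3 vehicle libraries, and the mean rose by 28.5%. IRF7 (chromosome 11, 612553 to 615983), the factor that drives most interferon-alpha genes, was at 22.3, 20.6 and 21.9 TPM with vehicle and 25.7, 26.9 and 29.6 TPM with PDBAG1 (log2 change 0.33, SE 0.07, limma adjusted p = 0.00171). STAT2 (chromosome 12, 56341597 to 56360203) was at 28.3, 24.9 and 27.4 TPM and then 32.6, 33.9 and 31.8 TPM (log2 change 0.28, SE 0.06, limma adjusted p = 0.00338). Neither gene's groups overlapped. IRF1 (chromosome 5, 132440440 to 132508719), a factor induced by interferon-gamma and also by NF-kB, was at 28.6, 25.6 and 24.3 TPM with vehicle and 24.1, 26.0 and 24.8 TPM with PDBAG1. The groups of IRF1 overlapped, and its log2 change of -0.06 did not pass (95% interval -0.21 to 0.08, limma adjusted p = 0.502).

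Of the RNA sensors, IFIH1, which encodes MDA5, a sensor of long double-stranded RNA, was at 3.45, 3.72 and 3.25 TPM with vehicle and 4.31, 4.76 and 4.24 TPM with PDBAG1 (log2 change 0.28, SE 0.10, limma adjusted p = 0.0315). Its call was lost without vehicle replicate 1 (0.28), vehicle replicate 3 (0.245) or PDBAG1 replicate 2 (0.24). DDX58, which encodes RIG-I, a sensor of short RNA with a 5′ triphosphate, was the most abundant of the 3 at 42.3 ± 3.64 TPM in the vehicle group and 47.2 ± 2.90 TPM in the PDBAG1 group (SD over n = 3 per group). The groups of DDX58 overlapped (log2 change 0.15, limma adjusted p = 0.0834), and it passed without vehicle replicate 1 (0.22) or PDBAG1 replicate 1 (0.19). The helicase gene DDX60 was at 3.75 to 4.59 TPM over all 6 libraries, with a log2 change of 0.10 that did not pass.

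The IFIT genes encode antiviral proteins, some of which bind foreign RNA and block translation. These genes lie side by side on chromosome 10 (89283694 to 89421605). Here 3 of the 4 fell, IFIT1 among them with a call that many alternative fits lost, and none rose, beside 15.9% of all genes lower and 21.7% higher. IFIT2 was at 31.9, 29.2 and 29.3 TPM with vehicle and 20.8, 24.6 and 25.3 TPM with PDBAG1, a log2 change of -0.35 (SE 0.08, limma adjusted p = 0.00252). IFIT5 was at 32.8, 30.3 and 31.0 TPM and then 25.7, 26.4 and 27.5 TPM (log2 change -0.23, limma adjusted p = 0.00634). In both genes every treated library lay below every vehicle library, and both passed in all 13 alternative fits. IFIT1 was at 25.2, 23.8 and 22.3 TPM and then 19.8, 21.6 and 20.9 TPM (log2 change -0.19, limma adjusted p = 0.0411). The groups of IFIT1 did not overlap either, but its call was lost without vehicle replicate 1 (-0.14) or 2 (-0.18) or PDBAG1 replicate 1 (-0.15), 2 (-0.21) or 3 (-0.19). IFIT3, the most abundant of the family, was at 103.7, 98.6 and 94.9 TPM with vehicle and 89.8, 93.6 and 96.5 TPM with PDBAG1, with overlapping groups and a log2 change of -0.09 that did not pass (limma adjusted p = 0.184).

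In the OAS family, which includes enzymes that make the messenger that activates RNase L, no gene passed. OAS2, the most abundant, was at 17.4, 16.5 and 14.7 TPM with vehicle and 17.8, 19.2 and 19.2 TPM with PDBAG1, groups that did not overlap, and it lay at the threshold (log2 change 0.20, limma adjusted p = 0.0505). It passed in 5 of the 13 alternative fits, which were those without vehicle replicate 1 (0.25) or PDBAG1 replicate 1 (0.23), with at least 1 TPM asked of every library (0.20), with a pseudocount of 0.1 (0.21) and with median-of-ratios scaling (0.16). OAS1, OAS3 and OASL had log2 changes of 0.01, 0.09 and -0.02 with overlapping groups. The sign of OAS1 turned without vehicle replicate 1 (-0.17) or PDBAG1 replicate 3 (-0.06), and under median-of-ratios scaling and quantile normalization.

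Among the proteins that act on virus entry, trafficking and release, the dynamin-like GTPases rose from low levels. MX1, which traps viral nucleocapsids, was at 10.7, 10.8 and 11.7 TPM with vehicle and 14.01, 13.46 and 13.03 TPM with PDBAG1 (log2 change 0.27, SE 0.07, limma adjusted p = 0.00998). MX2 was at 1.77, 1.33 and 1.65 TPM and then 2.16, 2.26 and 2.18 TPM (log2 change 0.31, SE 0.11, limma adjusted p = 0.0391). In both, all treated libraries lay above all vehicle libraries. MX2 lost its call without vehicle replicate 2 (0.24) or 3 (0.33) or PDBAG1 replicate 1 (0.32), 2 (0.30) or 3 (0.32), and MX1 kept its call without each library.

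The membrane proteins of this group, the IFITM proteins and BST2, were at higher levels, and the vehicle and PDBAG1 libraries of each overlapped. IFITM3, which blocks virus fusion in endosomes, was at 895, 952 and 941 TPM with vehicle and 957, 875 and 850 TPM with PDBAG1 (log2 change -0.06, 95% interval -0.15 to 0.04, limma adjusted p = 0.330). It supplied 42.0% to 45.5% of the summed TPM of the 41 members in each library. IFITM2 was at 209, 213 and 225 TPM and then 232, 204 and 203 TPM (log2 change -0.02), and IFITM1 at 100.04, 108.55 and 106.35 TPM and then 124.3, 107.5 and 100.8 TPM (log2 change 0.07). In all 3 IFITM genes PDBAG1 replicate 1 was the highest library, and without it the log2 change of IFITM3 was -0.11 and passed, while that of IFITM1 was -0.01 and did not. The IFITM genes are close paralogs, and how their reads were divided rests on the authors' counting. BST2, the tether that holds budding virus on the cell, was at 68.3 to 73.2 TPM over all libraries, with a log2 change of 0.01 (95% interval -0.09 to 0.11).

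ISG15 conjugation was represented by the modifier itself, its ligase HERC5, the related HERC6 and the protease USP18, which removes ISG15 and also blocks the interferon receptor. ISG15 was at 143, 133 and 144 TPM with vehicle and 145, 129 and 126 TPM with PDBAG1, so the groups overlapped (log2 change -0.07, limma adjusted p = 0.339), and it passed at -0.13 without PDBAG1 replicate 1. HERC5 (chromosome 4, 88457119 to 88506163) fell, from 17.1, 17.0 and 15.9 TPM to 13.2, 13.6 and 15.4 TPM (log2 change -0.23, SE 0.08, limma adjusted p = 0.0253). Its call was lost without vehicle replicate 1 (-0.21) or 2 (-0.22) or PDBAG1 replicate 1 (-0.19) or 2 (-0.21). HERC6 had treated libraries (4.48 to 4.92 TPM) that lay wholly below the vehicle libraries (5.07 to 6.16 TPM), and its log2 change of -0.19 did not pass. USP18 was near the expression limit at 1.10 to 1.48 TPM.

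**Figure D2:**
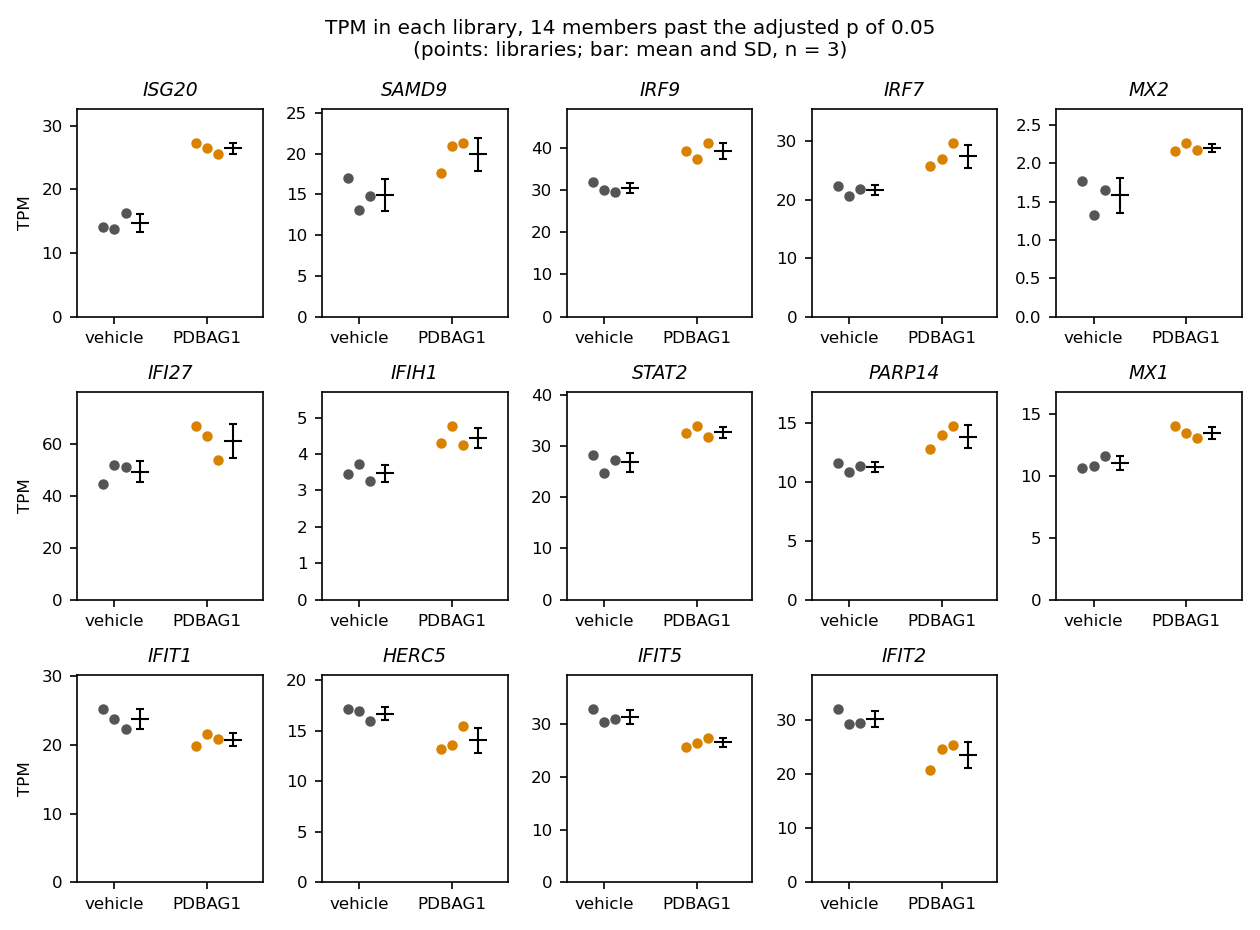
TPM (vertical axes, from 0) in each of the 3 vehicle and 3 PDBAG1 libraries for the 14 members past the adjusted p of 0.05, with the mean and SD beside the points. The treated libraries lie above the vehicle libraries in the 10 members that rose and below them in IFIT1, HERC5, IFIT5 and IFIT2, and the gap is widest in ISG20.

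Among the ADP-ribosylation genes, PARP14, a mono-ADP-ribosyltransferase, rose from 11.6, 10.8 and 11.3 TPM to 12.76, 14.00 and 14.71 TPM (log2 change 0.27, limma adjusted p = 0.0116), with no overlap, and missed the threshold without vehicle replicate 2 (0.246, limma adjusted p = 0.0503). PARP9 and its partner DTX3L, a ubiquitin ligase, had log2 changes of 0.09 and 0.18 and did not pass. These 2 genes share 139 exonic bases on opposite strands, and whether the library kept strand is not given in the sources used here.

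ISG20 (chromosome 15, 88635670 to 88656483), an exonuclease that degrades RNA, had the largest change of the members. It was at 14.1, 13.8 and 16.3 TPM with vehicle and 27.2, 26.5 and 25.6 TPM with PDBAG1. The mean rose from 14.7 ± 1.36 to 26.4 ± 0.817 TPM (SD over n = 3 per group), a log2 change of 0.81 (SE 0.07, limma adjusted p = 1.6e-06). It passed in all 13 alternative fits, with log2 changes of 0.76 to 0.88. The other 2 enzymes of this group could not be tested: RSAD2, encoding viperin, was at 0.30 to 0.69 TPM in the vehicle group and 0.33 to 0.41 TPM in the PDBAG1 group, and CMPK2 was at 0.05 TPM or less with vehicle and listed at 0 in all 3 treated libraries. RSAD2 and CMPK2 are among the genes that interferon raises most from low levels, and whether it does so in this line was not tested. Both lay under 1 TPM in every library.

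Of the remaining interferon-induced members, SAMD9 and IFI27 rose. SAMD9, a cytoplasmic antiviral and growth-restraining protein, was at 17.0, 13.1 and 14.8 TPM with vehicle and 17.6, 20.9 and 21.3 TPM with PDBAG1 (log2 change 0.39, SE 0.09, limma adjusted p = 0.00518). IFI27, a mitochondrial protein, was at 44.5, 51.8 and 51.0 TPM and then 66.6, 62.9 and 53.9 TPM (log2 change 0.31, SE 0.08, limma adjusted p = 0.00628). The groups of both were apart, but the nearest libraries were close, at 17.0 and 17.6 TPM in SAMD9 and 51.8 and 53.9 TPM in IFI27. IFI35, IFI6, IFI44 and XAF1 had log2 changes of 0.11, 0.08, 0.07 and 0.07, and SAMD9L, TRIM22 and EPSTI1 of -0.13, -0.14 and -0.24, and none of the 7 passed. EPSTI1 was at 2.31, 1.90 and 1.43 TPM with vehicle and 1.40, 1.37 and 1.49 TPM with PDBAG1, so the groups overlapped through vehicle replicate 3. IFI44L was at 0.20 to 0.64 TPM in the vehicle group and 0.20 to 0.32 TPM in the PDBAG1 group and could not be tested.

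By level, TPM being comparable between genes per length, IFITM3, IFITM2, ISG15, IFITM1 and IFIT3 were the 5 most abundant members, with means over the 6 libraries of 912, 214, 137, 108 and 96.2 TPM, and none of the 5 passed. In this order the libraries of neighbouring genes did not overlap down to IFITM1, and those of IFITM1 and IFIT3 overlapped. Of the 18 members with a mean of at least 20 TPM, 5 rose and 3 fell, beside 21.7% of all genes higher and 15.9% lower. Of the 13 members between 5 and 20 TPM, 3 rose and 1 fell, and of the 7 below 5 TPM, 2 rose and none fell. The median 95% interval reached 0.14 on the log2 scale to either side in the most abundant group, 0.18 in the middle group and 0.24 in the lowest. The summed TPM of the 41 members was 2086 ± 19.5 in the vehicle and 2094 ± 89.4 in the PDBAG1 libraries (SD over n = 3 per group), a difference of 0.346% that was smaller than the spread between libraries. Without IFITM3 the sum was 1138 to 1170 TPM in the vehicle and 1176 to 1238 TPM in the PDBAG1 libraries, which did not overlap, a difference of 3.69% of the mean.

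Many members lie in clusters of related genes, and the list of members holds several such gene families. By GENCODE v44 positions 23 of the 41 lay within 200 kb of another member, in 9 clusters. In the IFIT and HERC clusters every log2 change was negative, and in the MX (chromosome 21, 41361999 to 41470071), OAS and PARP9/DTX3L/PARP14 (chromosome 3, 122527924 to 122730840) clusters every one was positive, save for OAS1 in the settings given above and OAS3 under quantile normalization (-0.01). In the IFITM cluster the signs were mixed, with log2 changes of -0.02, 0.07 and -0.06 for IFITM2, IFITM1 and IFITM3. SAMD9 and its paralog SAMD9L stand next to each other on chromosome 7 (93099513 to 93148385) and their values parted as well. The difference of log2(TPM + 1) between SAMD9 and SAMD9L was 1.05, 0.95 and 1.12 in the vehicle libraries and 1.48, 1.57 and 1.61 in the PDBAG1 libraries, larger by 0.52 with PDBAG1 and without overlap. This pair was chosen after its values were seen, so the difference is a description with no test. Some members also share exonic bases with another annotated gene, so their values are less certain: DDX58 shares 4471 of 5097 bases with an overlapping gene on the same strand, IRF9 shares 368 of 3494 and IFIT2 427 of 4229 with a long noncoding RNA, IRF1 shares 615 bases with IRF1-AS1, TRIM22 shares 642 with OR56B1 and MX1 shares 143 with TMPRSS2, which was at 0.19 to 0.69 TPM.

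Of 21 interferon genes, which lie upstream of the members, IFNL1 was listed, at 0.14 TPM in vehicle replicate 1 and PDBAG1 replicate 1 and at 0 in the other 4 libraries. IFNB1 and the other 19 were not analysed here. The receptor chains IFNAR1 and IFNAR2 did not pass: IFNAR1 was at 27.8 ± 0.541 TPM in the vehicle group and 28.5 ± 2.56 TPM in the PDBAG1 group, and IFNAR2 at 8.88 ± 0.525 and 9.35 ± 0.463 TPM (SD over n = 3 per group). Of the 6 receptor genes, 2 rose and none fell (33.3% passed, beside 37.6% of all genes). They were IFNGR2, the signalling chain of the interferon-gamma receptor, and IFNLR1, a chain of the interferon-lambda receptor. Their log2 changes were 0.36 (limma adjusted p = 0.000245) and 0.50 (limma adjusted p = 0.00634). JAK1 rose from 41.7 ± 2.47 to 51.1 ± 3.26 TPM (SD over n = 3 per group, log2 change 0.29, limma adjusted p = 0.00241), and TYK2 did not pass (log2 change 0.07).

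Of 11 tested genes that detect nucleic acid or carry that signal on towards interferon production, 6 rose and none fell. That is 54.5% passed, beside 37.6% of all genes, with a median log2 change of 0.22. The genes that rose encode adaptors, a kinase and transcription factors. STING1, the adaptor that answers cytosolic DNA, rose from 37.4 ± 2.22 to 51.2 ± 4.23 TPM (SD over n = 3 per group, log2 change 0.44, limma adjusted p = 0.000176). TICAM1, the adaptor of TLR3, rose by a log2 change of 0.37, IRF5, at 1.48 ± 0.147 TPM with vehicle (SD, n = 3), by 0.35, and the kinase gene IKBKE by 0.33. IRF5 lost its call without vehicle replicate 1 (0.34) or 3 (0.31) or PDBAG1 replicate 2 (0.28). IRF3, a factor activated through these adaptors, was at 68.9 ± 5.11 and 78.0 ± 4.40 TPM (SD over n = 3 per group, log2 change 0.18, limma adjusted p = 0.0322). The call of IRF3 was lost without vehicle replicate 2 (0.12), PDBAG1 replicate 1 (0.15) or PDBAG1 replicate 2 (0.16). MAVS rose by 0.22. The sensor genes CGAS, TLR3 and DHX58, the kinase gene TBK1 and TRAF3 did not pass.

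Of the 6 genes that restrain interferon signalling, SOCS1 was at 4.86 ± 0.594 TPM in the vehicle group and 4.50 ± 0.402 TPM in the PDBAG1 group (SD over n = 3 per group, log2 change -0.09, limma adjusted p = 0.529). PTPN6, which encodes the phosphatase SHP-1, rose by a log2 change of 0.32 (limma adjusted p = 0.0218), a call lost without vehicle replicate 2 (0.33) or 3 (0.29) or PDBAG1 replicate 1 (0.27) or 2 (0.30). The other 4 did not pass, so 16.7% of the 6 passed, beside 37.6% of all genes.

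A further list of 30 interferon-stimulated genes outside the 41 gave 28 that were tested, of which 12 rose, 4 fell and 12 did not pass (57.1% passed, beside 37.6% of all genes), with a median log2 change of 0.18, beside 0.03 over all genes. None of the 28 reached the 1.5-fold limit on the log2(TPM + 1) scale. HELZ2, a nuclear receptor coactivator, rose most in this list, from 5.83 ± 0.759 to 8.99 ± 0.344 TPM (SD over n = 3 per group, log2 change 0.55, limma adjusted p = 0.000468). PML, which builds nuclear bodies, rose by 0.38. LAMP3, a lysosomal membrane protein, and PNPT1, a mitochondrial RNA exonuclease, fell by 0.42 and 0.37 on the log2 scale, and LAMP3 lost its call without vehicle replicate 3 (-0.36). Among genes that answer mainly to interferon-gamma, 8 were tested, of which 2 rose, none fell and 6 did not pass. The share of these genes that passed was below the 37.6% of all genes. Their median log2 change was 0.15, beside 0.03 over all genes. GBP2, a guanylate-binding protein, rose from 6.92 ± 0.269 to 11.2 ± 0.842 TPM (SD over n = 3 per group). ICAM1, an adhesion molecule that is also an NF-kB target, rose from 76.3 ± 1.52 to 127 ± 3.38 TPM (SD over n = 3 per group). The log2 changes of GBP2 and ICAM1 were 0.63 and 0.73 (limma adjusted p = 5.12e-05 and 2.95e-08). The interferon-induced chemokine genes CXCL10 and CXCL11 stayed at 0.09 to 0.55 TPM and 0.15 to 0.51 TPM over the 6 libraries and could not be tested. GBP1, GBP3, GBP4, GBP5, CIITA and WARS1 did not pass.

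TNF/NF-kB targets were set beside the members as an inflammatory comparator. This list was written with earlier results of these data known, so its rise is given as a description. Of 25 tested, 23 rose and 1 fell (96.0% passed, beside 37.6% of all genes). Of the 25, 17 rose at least 1.5-fold, beside 3.34% of all genes that passed both limits in either direction. The gene that fell was the chemokine gene CXCL1, from 560 ± 15.5 to 462 ± 20.5 TPM (SD over n = 3 per group, log2 change -0.28, limma adjusted p = 0.000127). The median log2 change of the list was 0.72, beside 0.07 for the interferon-stimulated members and 0.03 for all genes tested. PTGS2, the prostaglandin synthase COX-2, had the largest log2 change of this list, 2.29, followed by the cytokine genes IL1B (1.77), CSF2 (1.36) and CSF3 (1.25). The median over the list of each gene's difference from its vehicle mean was 0.74, 0.75 and 0.65 in the 3 PDBAG1 libraries for the TNF/NF-kB targets and 0.07, 0.03 and 0.03 for the 38 members, whose vehicle libraries ran from -0.04 to 0.05. So the members' medians in PDBAG1 replicates 2 and 3 lay within the range of the vehicle libraries, and that of replicate 1 lay 0.03 above it. Over all genes tested the same median was -0.007, 0.03 and 0.071 in the 3 PDBAG1 libraries and -0.025 to 0.045 in the vehicle libraries. The difference between the lists is given as a description and was not tested.

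**Figure D3:**
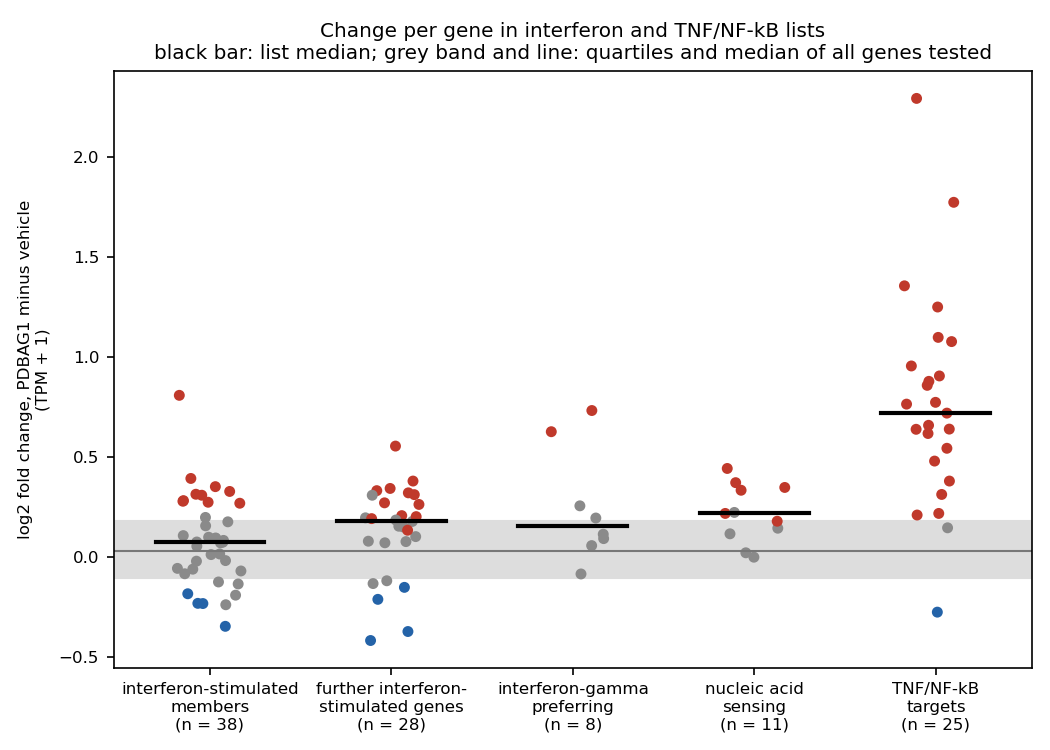
Log2 fold change per gene (vertical axis, PDBAG1 minus vehicle, log2(TPM + 1)) for the members and 4 other lists, with list medians as black bars and the median and quartiles of all 12582 genes tested as a grey line and band. The median of the interferon-stimulated members (0.07) lies inside the band and that of the TNF/NF-kB targets (0.72) far above it.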

How the data were processed

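RNA-seq of 3 vehicle and 3 PDBAG1 libraries was analysed, grouped by sample title. According to the methods, the authors built mRNA libraries for the BGISEQ platform, mapped reads with HISAT2 to GRCh38.p13 and normalised counts to FPKM. The submitters' processing notes list HISAT2 2.0.4, Bowtie2 2.2.5, RSEM 1.2.12 and GRCh38.p12. The deposited values are TPM, 1 value per gene and library, and how strand and annotation were handled is not given in the sources used here. The 12582 of 17631 genes that reached 1 TPM in at least 3 libraries were tested on log2(TPM + 1) with limma 3.58.1 in R 4.3.3 (variance trend, Benjamini-Hochberg adjustment over all genes tested). The fold limit of 1.5 follows the study. The fit was tested on simulated data with known changes. Members, lists and motifs were chosen with earlier results of these data known. Values per library were printed for members past both limits, the 12 largest changes, the 5 most abundant and the 4 signalling genes, and for further members chosen after their values were seen. Of other lists, up to 4 genes each were named by size of change, with some pathway genes fixed by name, not all of which are reported here. Same-numbered libraries share no origin in the sources, and their deviations correlated at -0.21, 0.01 and -0.08. Alternatives were other filters, pseudocount, scalings, fold limits, a replicate block, no variance trend and leaving out each library. Depth is unknown for TPM, so no counting error is given.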

Additional observations from a re-analysis of the deposited data

How the results depend on the processing

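In 13 alternative fits, ISG20 passed both limits each time and was the 1 member to do so, with 1 to 1 members when each library was left out. No member reached a fold limit of 2 (0 members), and 14 passed with no fold limit. Over all genes the count past both limits was 80 at a fold limit of 2, 4736 with no fold limit, 630 with a pseudocount of 0.1 and 423 to 483 with 1 library left out, and quantile normalization gave 287 higher and 94 lower in place of 360 and 60. The number of members that rose was 8 to 11 with 1 library left out, and the number that fell was 2 to 4, 2 with no expression filter and 7 with quantile normalization. The members' median log2 fold change was 0.001 with quantile normalization and 0.032 to 0.088 with 1 library left out. The other interferon pathway lists, without the TNF/NF-kB targets, held 63 tested genes. Of these, 24 rose and 4 fell, so 28 passed (44.4%, beside 37.6% of all genes). Their median log2 change was 0.15, beside 0.03 over all genes tested. With 1 library left out, 18 to 29 of them passed, the lowest without vehicle replicate 3. The cause of these shifts was not tested.

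The replicate numbers only name the libraries. With the replicate number as a block, 8 members rose and 2 fell, all among the 14 that passed without it. IFIH1, IFIT1, MX2 and HERC5 missed the threshold in the block fit (limma adjusted p = 0.0664, 0.0962, 0.0712 and 0.0621).

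STAT2, IRF7, IRF9, IFIT2, IFIT5, ISG20, IFI27 and SAMD9 passed in all 13 fits. IFIH1, MX1 and MX2 missed the threshold under quantile normalization (0.174, 0.196 and 0.220), while HERC6 (-0.302), SAMD9L (-0.225) and EPSTI1 (-0.338) passed. IFIT3 passed under median-of-ratios scaling (-0.119), and IFIH1, IFIT1 and HERC5 missed it with no expression filter. Of 494 single-gene values of members, 433 kept direction and side of the threshold, 29 lost the call, 13 gained it and 19 changed sign, and no value that changed sign passed. Under quantile normalization these were DDX60 (-0.020), OAS1 (-0.102), OAS3 (-0.007), USP18 (-0.023), XAF1 (-0.020) and, of the receptors, IFNAR1 (-0.002) and IFNAR2 (-0.021). Under median-of-ratios scaling they were OAS1 (-0.017), BST2 (-0.021) and IFNAR1 (-0.004). With 1 library left out, values ran from -0.112 to 0.000 for IRF1, -0.173 to 0.141 for OAS1, -0.069 to 0.041 for OASL, -0.013 to 0.036 for BST2, -0.011 to 0.139 for IFITM1, -0.086 to 0.012 for IFITM2, -0.013 to 0.107 for USP18, -0.030 to 0.174 for IFI6 and -0.029 to 0.097 for IFNAR1.

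With 3 libraries a group and no depth in TPM, members under 5 TPM had the widest intervals, and those under 1 TPM were not tested.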
